A study of Mus musculus with 13 samples.

Results

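Solute carriers are membrane proteins that move small molecules across the plasma membrane or the membranes of organelles. The 74 genes described here were chosen by symbol, as those starting with Slc and a digit in the platform annotation, and then selected on measured intensity. Each gene was represented by its probe set with the highest mean, and a mean of 100 or more over 12 pools was required. Of 150 such genes on the array, 74 met that mean and 76 did not, and Slc4a4 was left out beforehand. The array named 8251 genes in all. The genes just inside the limit were Slc39a9 (101), Slc35a1 (102) and Slc38a4 (102), and those just outside were Slc2a3 (97.9), Slc23a2 (96.2) and Slc39a6 (96.0). The limit used the mean level, so the levels below are a description, and only changes over time were tested.

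The tissue was aorta of C57BL/6 mice, an inbred strain. After 2 weeks in a cycle of 12 h light and 12 h darkness, and 36 h of constant darkness, aortae were taken at 4 h intervals across 48 h. Each of the 12 time points, named by hours of circadian time (CT) from CT18 to CT62, was 1 pool of 6 aortae, measured on a one-colour array of short oligonucleotides. CT18 had 2 arrays, which were averaged as 1 pool because the labels do not say whether the RNA was shared. CT18 to CT38 is called the first day and CT42 to CT62 the second, so 2 pools taken 24 h apart stand for each of 6 times of the circadian day. All mice were of 1 strain without a stated allele or agent, and the labels state neither age nor sex.

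Solute carriers have little in common beyond this task. Families differ in cargo and energy source: some exchange 1 solute for another, some couple uptake to the sodium gradient kept up by the sodium pump, and others let solutes run down their own gradient. The SLC25 family sits mainly in the inner mitochondrial membrane and links the cytosol with respiration. In the vessel wall, carriers of chloride, bicarbonate and protons help set cell volume and pH, while adipose tissue around the vessel relies on carriers of glucose, fatty acids and citrate. Many carrier genes are known to be rhythmic in liver, kidney and gut, where feeding and the clock set substrate supply.

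The members fell by family number into 7 classes: 15 of the 33 amino acid and peptide carriers on the array, 15 of 20 SLC25 carriers, 14 of 33 carriers of monocarboxylates, lipids, vitamins and organic ions, 11 of 16 metal carriers, 7 of 22 inorganic ion carriers, 7 of 12 nucleoside and nucleotide sugar carriers, and 5 of 11 in sugar carrier families. None of the 3 vesicular carriers reached a mean of 100. A class is that of the family and not always of the cargo. Slc5a6 lies in a sugar carrier family but moves vitamins, Slc25a17 is a peroxisomal member of the mitochondrial family, and Slc9a3r1 encodes a scaffold protein and not a carrier.

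The arrays were alike in overall scale but not identical. The median intensity of an array's probe sets lay between 70.4 (CT58) and 87.6 (CT30), and intensities at or below 36.7 were treated as a floor. Markers of skeletal muscle, thymocytes and atrium differed more between pools, while adipocyte markers ranged about as little as the array medians. The summed intensity of 17 skeletal muscle markers ran from 8708 at CT54 to 42291 at CT34, that of 10 thymocyte markers from 250 at CT42 to 4723 at CT54, that of 11 adipocyte markers from 52116 at CT18 to 66275 at CT58, and that of 8 atrial markers from 8314 at CT30 to 18682 at CT42. Summed markers of the aortic wall ran from 11553 to 18318 for 8 smooth muscle genes and from 1413 to 2774 for 8 endothelial genes. Not every single marker was above the floor in every pool, as the endothelial gene Cldn5 read 27.7 at CT34 and 552 at CT26. In such pools fewer cells of a type and less RNA per cell cannot be told apart.

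The spread over the 48 h differed widely between solute carriers. In 12 of 74 members the highest pool was under 1.5-fold above the lowest, in 18 it was 1.5-fold to 2-fold, and in 33 it was 2-fold to 4-fold. In the other 11 it was at least 4-fold. The steadiest were Slc25a11, the mitochondrial oxoglutarate carrier, at 826 (CT62) to 1022 (CT58) with a median of 877, and Slc35b1, which brings ATP into the endoplasmic reticulum, at 657 (CT38) to 814 (CT42) with a median of 694. The SD over the 12 pools, on the log2 scale, had a median of 0.34 for the members against 0.27 for all 4433 genes with a mean of 100 or more. The duplicate CT18 arrays differed by a median of 0.24 (log2) over the members. In 57 of 74 members that difference was below 0.5, and in 5 it was above 1.

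**Figure D1:**
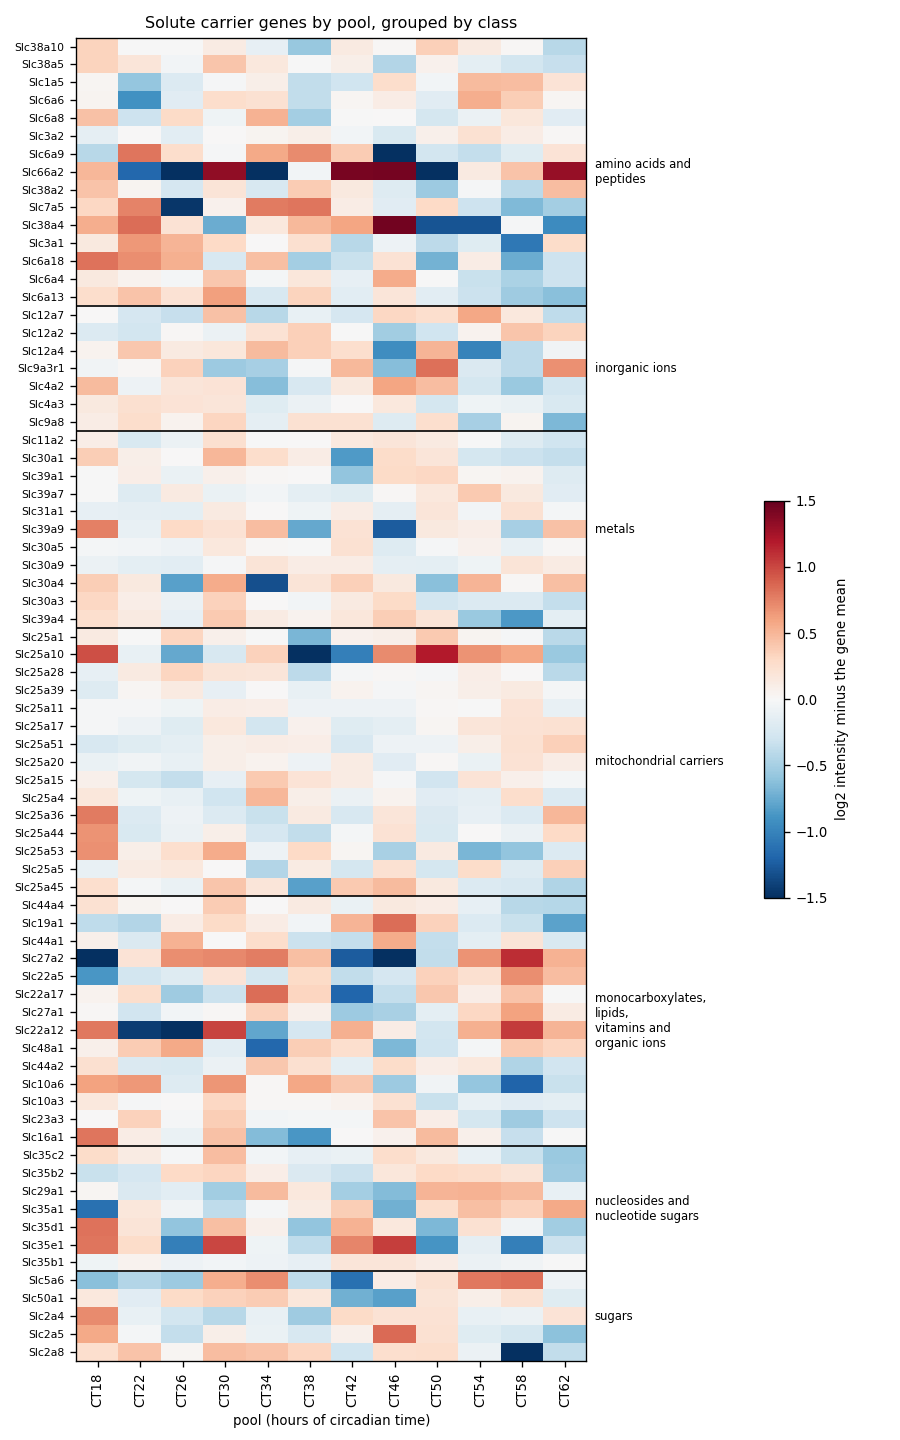
Each row is 1 of the 74 members, each column 1 pool from CT18 to CT62, and colour gives log2 intensity minus the mean of that gene over the 12 pools (clipped at -1.5 and 1.5). Rows are grouped by class and ordered within it by fitted peak. The 5 members with the highest SD over pools are Slc66a2, Slc27a2, Slc22a12, Slc25a10 and Slc38a4.

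The main question of the series is which aortic transcripts follow a 24-h rhythm without light. A cosine of 24 h was fitted to all 7453 probe sets kept, and a call required an adjusted p below 0.05 (limma, Benjamini-Hochberg). The amplitude is the distance from mean to peak on the log2 scale and is given ± SE over 12 pools. By this rule 0 of 74 members were called, against 0.349% of all probe sets tested and 0.474% of all 4433 genes with a mean of 100 or more. At an unadjusted p below 0.05 there were 12 members (16.2%), against 9.96% of all probe sets and 11.0% of all genes with a mean of 100 or more. The median amplitude was 0.23 for the members, 0.18 for all probe sets kept and 0.16 for all genes with a mean of 100 or more. No member is therefore described as rhythmic below, and the values of the 12 with the smallest p are a description of the pools. Each time point was 1 pool, so p measures the scatter of pools around the curve, which may be technical.

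**Figure D2:**
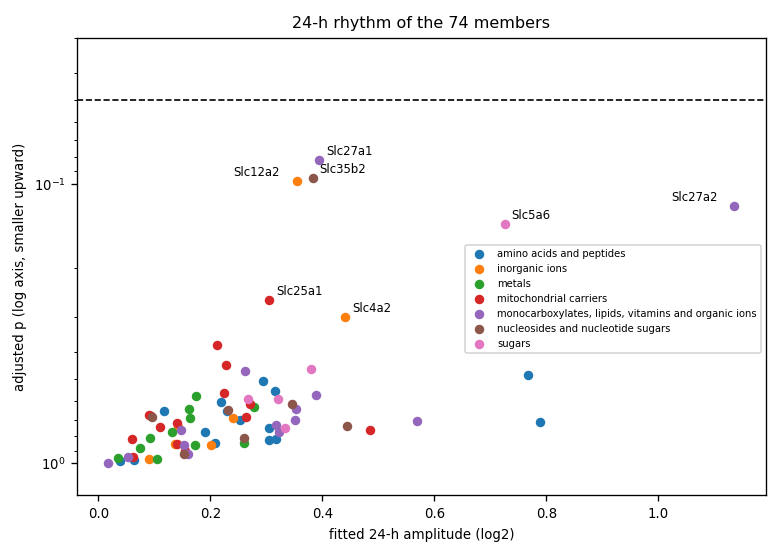
Fitted 24-h amplitude (log2, x axis) against adjusted p (log axis, smaller values upward) for the 74 members, coloured by class. The dashed line marks 0.05, and no member lies above it; Slc27a1 (0.0822), Slc35b2 (0.0954) and Slc12a2 (0.0975) lie closest, and Slc27a2 has the widest amplitude (1.14).

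Fitted peaks of the members were spread over the cycle much as those of other genes. Of 74 peaks, 27 fell in the late subjective night from CT18 to CT24 (36.5%, against 34.9% of all probe sets kept), 16 in the 6 h after CT0, 20 in the 6 h after CT6 and 11 in the 6 h after CT12. For the 12 with the smallest p these counts were 3, 3, 6 and 0, and for the 742 probe sets at an unadjusted p below 0.05 the shares in the same order were 31.8%, 23.0%, 27.9% and 17.3%. When the days were fitted separately, the peaks of each of these 12 differed by no more than 4 h, which selection by a fit to both days favours.

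Slc27a1 and Slc27a2, the fatty acid carriers of the SLC27 family that reached the limit, had among the smallest rhythm p, though neither passed. Slc27a1 (probe set 93486_at) encodes FATP1, which takes up long-chain fatty acids in muscle and fat. Its intensities were 867, 705, 832, 871, 1085 and 905 from CT18 to CT38 and 587, 613, 777, 1061, 1302 and 931 from CT42 to CT62. Both CT10 pools (CT34 and CT58) were above every pool of the other circadian times of their own day, and CT42 and CT46 were the lowest of all. The mean at circadian time 10 was 1194 ± 153, against 659 ± 65.1 at 22 (SD, n = 2 pools each). The amplitude was 0.39 ± 0.07 with a peak at CT9.3, which did not pass (adjusted p = 0.0822, limma). Without CT30 it did (adjusted p = 0.0484), while without CT58 the adjusted p was 0.262.

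Slc27a2 (100967_at) encodes FATP2, which takes up fatty acids and activates very long chains with coenzyme A. It read 96.9, 387, 546, 556, 572 and 461 from CT18 to CT38 and 141, 102, 259.7, 537, 728 and 484 from CT42 to CT62. The 3 lowest pools were CT18, CT42 and CT46, all in the subjective night, but CT22, 24 h before CT46, read 387. The highest pool was 7.51-fold above the lowest. Circadian time 10 averaged 650.1 ± 110.2 and circadian time 18 119 ± 31.3 (SD, n = 2 pools each), and these pools did not overlap. The amplitude was 1.14 ± 0.24 with a peak at CT8.1 (adjusted p = 0.12, limma), and without CT22 the gene passed (adjusted p = 0.0367). Over the other alternatives its adjusted p reached 0.317 without CT58 and 0.362 with no filter on low values.

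Promoters of 3 members are shown, the fatty acid carriers Slc27a1 and Slc27a2 and the citrate carrier Slc25a1. They were chosen for profiles among the 6 with the smallest p and for a motif that clock proteins are known to bind. The motif was thus a condition of the choice, and none of the 6 passed for a rhythm. Slc12a2, Slc35b2 and Slc5a6, the others of those 6, had no such match among the promoters searched, which were found for 60 of 74 members. The E-box CACGTG is bound by CLOCK and BMAL1, and AGGTCA, the core shared by ROR and REV-ERB sites, by those nuclear receptors. Sequences are from RefSeq, build GRCm38.p6, each the 250 bases before a listed start, 5′ to 3′ on the strand of the gene, with the motif in capitals.
Slc27a1 (chr8:71570344-71570593, plus strand, 1 of 3 listed starts): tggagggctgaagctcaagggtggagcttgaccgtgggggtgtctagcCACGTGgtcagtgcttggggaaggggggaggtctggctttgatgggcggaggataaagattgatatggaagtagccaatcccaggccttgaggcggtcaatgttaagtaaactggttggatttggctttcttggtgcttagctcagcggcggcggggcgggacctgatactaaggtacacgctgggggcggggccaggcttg
Slc27a2 (chr2:126552774-126553023, plus strand): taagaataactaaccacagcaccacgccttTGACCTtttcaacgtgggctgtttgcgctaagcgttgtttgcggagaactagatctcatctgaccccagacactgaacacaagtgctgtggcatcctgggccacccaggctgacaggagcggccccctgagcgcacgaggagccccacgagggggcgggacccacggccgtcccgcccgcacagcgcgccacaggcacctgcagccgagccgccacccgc
Slc25a1 (chr16:17928220-17928469, minus strand): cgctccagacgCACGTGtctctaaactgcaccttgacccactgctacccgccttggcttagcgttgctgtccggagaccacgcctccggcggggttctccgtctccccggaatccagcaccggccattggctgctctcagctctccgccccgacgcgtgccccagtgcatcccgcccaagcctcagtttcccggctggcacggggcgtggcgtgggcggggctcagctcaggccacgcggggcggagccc
The E-box of Slc27a1 begins 202 bases before the start and that of Slc25a1 239 bases before it. The match in Slc27a2 begins 220 bases before the start and reads TGACCT, the reverse complement of AGGTCA.

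RefSeq promoters were matched for 60 of 74 members (85 starts) by gene identifier. CACGTG, which is its own complement, was in 10.6% of these against 6.02% of all 32851 promoters of 250 bases, and the genes with it were Slc12a7, Slc16a1, Slc25a1, Slc25a15, Slc25a36, Slc27a1, Slc29a1, Slc30a5 and Slc38a5. AGGTCA on either strand was in 9.41% against 14.0%. The D-box letters TTATGTAA or TTACGTAA, on either strand, were in 0 of 85 against 0.931%. None of these motifs is contained in another, and a match describes the letters and not a site in use.

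Among the carriers of monocarboxylates, lipids, vitamins and organic ions, 3 of 14 had an unadjusted p below 0.05, against 9.96% of all probe sets. That count includes Slc27a1 and Slc27a2, and 0 passed. Slc23a3 (161149_r_at), an orphan of the ascorbate carrier family, had 652 (CT58) to 1271 (CT46) with a median of 931, and its pools at circadian time 22 averaged 1237 ± 47.7 (SD, n = 2) with an amplitude of 0.26 ± 0.09 (adjusted p = 0.466). Slc16a1, the lactate and pyruvate carrier MCT1, ran from 73.9 (CT38) to 237 (CT18) with a median of 138 (peak CT23.5, adjusted p = 0.638). Slc22a5, which takes up carnitine for fatty acid oxidation, had 58.7 (CT18) to 175 (CT58) with a median of 109 (peak CT8.4, adjusted p = 0.57). Slc22a12, the urate carrier of the kidney, varied from below the floor at CT26 to 268 at CT58, an at least 7.3-fold range (adjusted p = 0.708). The remaining 8 had adjusted p from 0.700 to 0.998: the choline carrier genes Slc44a1, Slc44a2 and Slc44a4, the folate carrier gene Slc19a1, the haem carrier gene Slc48a1, Slc10a3, Slc10a6 and Slc22a17.

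**Figure D3:**
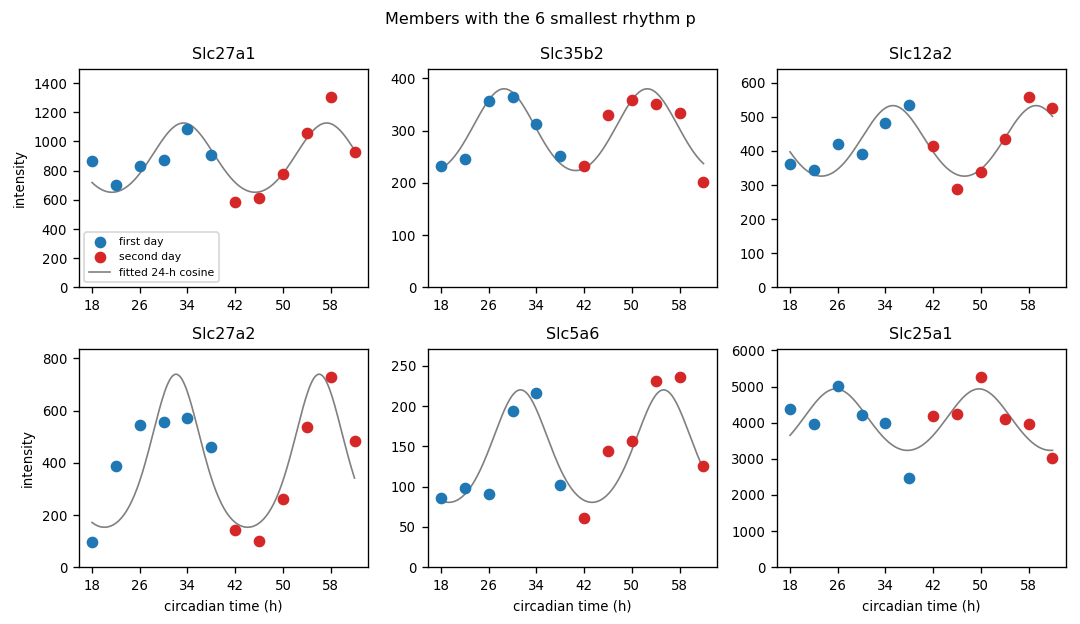
Intensity (y axis, from 0) against circadian time (x axis, h) for the 6 members with the smallest rhythm p, with first-day pools in blue, second-day pools in red and the fitted 24-h cosine in grey. Slc27a1, Slc27a2, Slc5a6 and Slc12a2 have their fitted peaks between CT7.3 and CT11.3, Slc35b2 at CT4.6 and Slc25a1 at CT1.7.

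Of the inorganic ion carriers, 2 of 7 had an unadjusted p below 0.05, against 9.96% of all probe sets, and 0 passed. Slc12a2 (99500_at) encodes NKCC1, the sodium-potassium-chloride cotransporter that loads smooth muscle with chloride. It read 361, 343, 422, 392, 483 and 533 from CT18 to CT38 and 416, 289.8, 339.7, 434, 557 and 527 from CT42 to CT62. On each day the 2 highest pools were those at circadian times 10 and 14, and the lowest was that at 22. Circadian time 14 averaged 530.1 ± 4.35 and 22 317 ± 37.9 (SD, n = 2 pools each), and the amplitude was 0.35 ± 0.07 with a peak at CT11.3 (adjusted p = 0.0975, limma). Without CT26 it passed (adjusted p = 0.0485), while without CT58 the adjusted p was 0.304.

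Slc4a2 (100020_at), the chloride-bicarbonate exchanger AE2, was lowest near the time at which Slc12a2 was high. It read 232, 158, 189, 193, 107 and 142 from CT18 to CT38 and 185, 251, 229, 139, 113 and 138 from CT42 to CT62. Circadian time 10 averaged 110.4 ± 4.16 and circadian time 2 209 ± 28.5 (SD, n = 2 pools each), and the amplitude was 0.44 ± 0.12 with a peak at CT22.6 (adjusted p = 0.299). The related exchanger AE3, encoded by Slc4a3, had 147 (CT50) to 209 (CT22) with a median of 173 (adjusted p = 0.741). The potassium-chloride cotransporter genes Slc12a4 and Slc12a7 had amplitudes of 0.09 ± 0.20 and 0.24 ± 0.13, the sodium-proton exchanger gene Slc9a8 0.14 ± 0.12, and the scaffold gene Slc9a3r1 0.20 ± 0.19, with adjusted p from 0.686 to 0.968.

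In the sugar carrier families 2 of 5 had an unadjusted p below 0.05, against 9.96% of all probe sets, and 0 passed. Slc5a6 (104200_at), the sodium-dependent carrier of biotin and pantothenate, read 85.9, 98.1, 91.1, 194, 217 and 102 from CT18 to CT38 and 61.1, 144, 156, 231, 236 and 126 from CT42 to CT62. Circadian times 6 and 10 held the 2 highest pools of each day, with means of 213 ± 26.2 and 226 ± 13.7, and 18 held the lowest, with 73.5 ± 17.5 (SD, n = 2 pools each). The amplitude was 0.73 ± 0.15 with a peak at CT7.3 (adjusted p = 0.139, limma). Slc50a1, a sugar carrier of the Golgi, ran from 106 (CT46) to 241 (CT34) with a median of 208 (amplitude 0.38 ± 0.13, peak CT7.6, adjusted p = 0.461).

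The glucose and fructose carriers had no call either. Slc2a4 encodes GLUT4, the insulin-regulated glucose carrier of muscle and fat, and read 1787, 1018, 907, 819, 1019 and 758 from CT18 to CT38 and 1335, 1272, 1275, 1018, 1034 and 1268 from CT42 to CT62. CT18 was above the other 11 pools, and its 2 arrays read 1993 and 1582. Its amplitude was 0.27 ± 0.11 with a peak at CT19.2 (adjusted p = 0.588). Slc2a5, the fructose carrier, had 217 (CT62) to 598 (CT46) with a median of 317 (adjusted p = 0.588), and Slc2a8, the intracellular glucose carrier GLUT8, 78.0 (CT58) to 346 (CT30) with a median of 298 (adjusted p = 0.75).

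Among nucleoside and nucleotide sugar carriers 1 of 7 had an unadjusted p below 0.05, against 9.96% of all probe sets, and 0 passed. Slc35b2 (104042_at) carries the sulfate donor PAPS into the Golgi, where proteoglycans are sulfated. It read 232, 245, 357, 364, 312 and 252 from CT18 to CT38 and 233, 329, 359, 350.2, 333 and 201 from CT42 to CT62. The pools at circadian times 2, 6 and 10 were all above those at 14 and 18, with 358 ± 1.19 at 2 and 226 ± 35.6 at 14 (SD, n = 2 pools each). The amplitude was 0.38 ± 0.07 with a peak at CT4.6 (adjusted p = 0.0954, limma). The duplicate CT18 arrays gave 288 and 176, a gap nearly as wide as that between these means. Slc29a1, the nucleoside carrier ENT1 that clears adenosine, ran from 92.1 (CT46) to 208 (CT54) with a median of 140.1 (peak CT8.6, adjusted p = 0.615). Slc35b1 was named above among the steadiest. The others were Slc35a1, the CMP-sialic acid carrier, Slc35c2, Slc35d1 and Slc35e1, with adjusted p from 0.642 to 0.928.

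The mitochondrial carriers were the largest class beside that of amino acids. At an unadjusted p below 0.05 there were 3 of 15, against 9.96% of all probe sets, and 0 passed. Slc25a1 (162358_i_at) exports citrate, the source of cytosolic acetyl-CoA for lipid synthesis, and its promoter is among those printed above. It read 4374, 3974, 5006, 4202, 3981 and 2477 from CT18 to CT38 and 4172, 4242, 5259, 4106, 3956 and 3024 from CT42 to CT62. On each day the pool at circadian time 2 was highest and that at 14 lowest, with means of 5132 ± 178 and 2750 ± 387 (SD, n = 2 pools each). The amplitude was 0.31 ± 0.08 with a peak at CT1.7 (adjusted p = 0.26, limma). Its other probe set, 94807_at, followed the same course (r = 0.97 between the 2 over 12 pools, which share the arrays) with a fitted amplitude of 0.27 ± 0.08, peaking at CT1.7.

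Slc25a51, the carrier of NAD+ into mitochondria, depended on the probe set. The brighter, 161951_f_at, whose suffix marks it as shared by related sequences, ran from 369.9 (CT18) to 562 (CT62) with a median of 439 (amplitude 0.21 ± 0.06, peak CT10.1, adjusted p = 0.377). The dimmer, 97410_at, read 155, 254, 314, 337, 423 and 374 on the first day and 224, 157, 269, 393, 466 and 484 on the second. Its amplitude was 0.65 ± 0.12 with a peak at CT9.3 (adjusted p = 0.0941), so the fitted peaks of both probe sets lay within 1 h of each other while the amplitudes differed. Slc25a28, the iron carrier mitoferrin 2, had 267 (CT62) to 443 (CT26) with a median of 357 (amplitude 0.23 ± 0.07, peak CT3.1, adjusted p = 0.446); its pools at circadian time 14 were the 2 lowest.

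The other mitochondrial carriers were Slc25a4 and Slc25a5, which exchange ATP for ADP, the carnitine-acylcarnitine carrier gene Slc25a20, the dicarboxylate carrier gene Slc25a10, the ornithine carrier gene Slc25a15, the pyrimidine nucleotide carrier gene Slc25a36, Slc25a11, Slc25a17, Slc25a39, Slc25a44, Slc25a45 and Slc25a53. Slc25a20, needed for import of fatty acids into mitochondria, ran from 2914 (CT46) to 3811 (CT58) with a median of 3239, a 1.31-fold range, with a peak at CT11.1 and an adjusted p of 0.676. Slc25a10 ranged most widely in the class, from 41.6 (CT38) to 320.2 (CT50) with a median of 154 (adjusted p = 0.76).

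Amino acid and peptide carriers gave 1 of 15 at an unadjusted p below 0.05, against 9.96% of all probe sets, and 0 passing. That member was Slc38a4 (104286_at), a sodium-coupled carrier of neutral amino acids, which was highest at CT46 (245) and below the floor at CT50 and CT54 (amplitude 0.77 ± 0.27, peak CT19.1, adjusted p = 0.485). Slc38a2, the system A carrier SNAT2, ran from 287 (CT50) to 574 (CT62) with a median of 421, and averaged 559 ± 22.3 at circadian time 14 and 319 ± 45.3 at 2 (SD, n = 2 pools each; adjusted p = 0.508). The heavy chain CD98, encoded by Slc3a2, was steady at 390.1 (CT46) to 533 (CT54) with a median of 459, while its partner Slc7a5, the large neutral amino acid carrier LAT1, ran from 50.9 (CT26) to 244 (CT38) with a median of 148 (adjusted p = 0.828). The taurine carrier gene Slc6a6 had 257 (CT22) to 704 (CT54) with a median of 495 (peak CT8.7, adjusted p = 0.553), and the glutamine carrier gene Slc1a5 587 (CT22) to 1223 (CT54) with a median of 881 (peak CT8.4, adjusted p = 0.648).

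Slc66a2 (160801_at) had the widest spread of any member, with an SD of 1.31 (log2). It read 210.2, 65.5, 46.4, 373, 47.1 and 144 from CT18 to CT38 and 399, 401, 27.9, 163, 199 and 365 from CT42 to CT62, and is singled out after its values were seen. Both pools at circadian time 2 were low and both at 18 higher, but circadian times 6, 10, 14 and 22 each held 1 pool at least 2-fold above the other, and the rhythm fit gave an amplitude of 0.79 ± 0.45 (adjusted p = 0.709). The remaining members of the class were Slc3a1, Slc6a4, Slc6a8, Slc6a9, Slc6a13, Slc6a18, Slc38a5 and Slc38a10, with adjusted p from 0.601 to 0.984.

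The metal carriers gave 0 of 11 at an unadjusted p below 0.05, against 9.96% of all probe sets. The smallest p was that of Slc30a9, a zinc carrier family member of mitochondria, at 173 (CT26) to 220.4 (CT34) with a median of 188 (amplitude 0.17 ± 0.07, peak CT12.2, adjusted p = 0.575). Its cosine accounted for a share of 0.85 of its variation (R2), and its variance in the test is moderated over probe sets of like intensity. Slc39a4, the zinc importer ZIP4, ran from 184 (CT58) to 438 (CT30) with a median of 366 (adjusted p = 0.631). In the probe sets used, the copper carrier gene Slc31a1 had a range of 1.3-fold and Slc11a2, the iron carrier DMT1, of 1.46-fold. Their dimmer probe sets ranged more widely. For Slc31a1, 103845_at ran from 149 (CT38) to 290 (CT46), and for Slc11a2, 104451_at ran from 122 (CT22) to 269 (CT50). Slc30a1, Slc30a3, Slc30a4, Slc30a5, Slc39a1, Slc39a7 and Slc39a9 had adjusted p from 0.637 to 0.968.

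The comparison of days asks whether levels drifted with time in darkness. With limma, 0 of 74 members were called, as were 0% of all probe sets, and at an unadjusted p below 0.05 there were 10 members (13.5%) against 7.54% of all probe sets. Of these 10, 9 were lower on the second day and 1, Slc1a5, was higher. Over all probe sets at that p, 321 were lower and 241 higher, and the difference between these splits was not tested. The 3 smallest p were those of Slc6a13, the GABA and taurine carrier GAT2, with a second day minus first day difference of -0.53 ± 0.14 (log2, SE, adjusted p = 0.563), Slc25a53 (-0.60 ± 0.18) and Slc10a6, a carrier of sulfated steroids (-0.77 ± 0.24). Slc6a13 and Slc25a53 were higher on the second day in 0 of 6 pairs of pools 24 h apart, and Slc10a6 in 1. Over all members the median difference was -0.01, against -0.03 over all probe sets.

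Slc6a13 read 319, 357, 309, 409, 225 and 336 from CT18 to CT38 and 239, 302, 238, 213, 185 and 172 from CT42 to CT62, so the 4 highest pools were of the first day and the 3 lowest of the second. The duplicate CT18 arrays read 232 and 407. A rhythm that differed between days was called in 0 members and 0% of all probe sets (limma), with 7 members (9.46%) at an unadjusted p below 0.05 against 6.98%. The smallest p were those of Slc19a1 (adjusted p = 0.678), Slc39a4 and Slc27a1. For Slc19a1, the reduced folate carrier, the duplicate CT18 arrays read 357 and 48.8, the widest gap of any member (2.87 log2), so its level at CT18 was not fixed by these data.

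Because pools differed in muscle, thymus and, less widely, fat markers, each probe set was also fitted on the mean centred log2 profile of each marker list. The slope is the log2 change of a gene per log2 unit of the markers. On skeletal muscle markers 0 of 74 members were called, against 0.243% of all probe sets, and 2 (2.70%) had an unadjusted p below 0.05 against 3.09%. On thymocyte markers 0 members were called, against 0.756%, and 2 (2.70%) had an unadjusted p below 0.05 against 8.19%. On adipocyte markers 0 members were called, against 0%, and 9 (12.2%) had an unadjusted p below 0.05 against 12.0%. The marker genes themselves are left out of these counts.

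The ATP/ADP exchangers had slopes of opposite sign on the muscle markers, and neither passed. Slc25a4 (93084_at) encodes ANT1, the form of heart and skeletal muscle, and read 4291, 3648, 3530, 3100, 5399 and 4068 from CT18 to CT38 and 3591, 3974, 3395, 3482, 4598 and 3313 from CT42 to CT62. Its 3 highest pools, CT34, CT58 and CT18, were the 3 with the highest muscle marker sums (42291, 28960 and 33824). Its slope was 0.22 ± 0.05 (SE, adjusted p = 0.121, limma). It passed after quantile normalization (0.24, adjusted p = 0.0346), but the adjusted p was 0.341 with arrays centred on their medians and 0.999 without CT34 (slope 0.17). The relation had Pearson's r = 0.81 and Spearman's rho = 0.57 over 12 pools, both given as a description because the gene was picked on this slope. Without CT18 and CT34, the pools farthest from the median of the markers, r was 0.61.

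Slc25a5 (100617_at) encodes ANT2, the form of dividing cells and many other tissues, and read 1361, 1597, 1635, 1470, 1080 and 1597 from CT18 to CT38 and 1226, 1724, 1221, 1771, 1286 and 1877 from CT42 to CT62. CT34 was its lowest pool and CT62, CT54 and CT46 its highest. The slope was -0.18 ± 0.07 (adjusted p = 1.00, limma), with r = -0.60 and rho = -0.48. Without CT18 and CT34 r was -0.34, so the relation rests in part on those pools. The other Slc25a5 probe sets had slopes of 0.04 ± 0.08 (100618_f_at) and 0.12 ± 0.09 (100619_r_at) and did not share the sign.

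Slc2a4 and the creatine carrier gene Slc6a8, both known in skeletal muscle, were not called on muscle markers. For Slc2a4 the slope was 0.17 ± 0.11, with r = 0.42 and rho = 0.50, and r was 0.30 without CT18 and CT34. For Slc6a8 the slope was 0.22 ± 0.11 and r = 0.61, with rho = 0.45 and r = 0.09 without those pools, on which it therefore rests. The other smallest p in each class were those of Slc48a1 (-0.32 ± 0.16), Slc35a1 (-0.27 ± 0.17), Slc9a3r1 (-0.22 ± 0.16) and Slc30a4 (-0.26 ± 0.19).

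**Figure D4:**
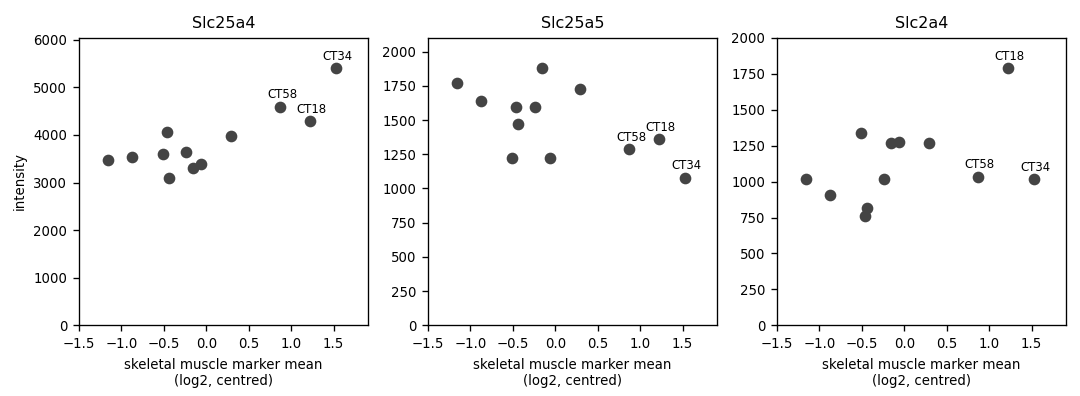
Intensity (y axis, from 0) of Slc25a4, Slc25a5 and Slc2a4 in the 12 pools against the mean centred log2 level of the skeletal muscle markers (x axis), 1 point per pool. CT18, CT34 and CT58, at the right, hold the 3 highest Slc25a4 values, Slc25a5 is lowest at CT34, and Slc2a4 is high at CT18 but not at CT34 or CT58.

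On thymocyte markers the smallest p were those of Slc25a17 (0.12 ± 0.05, adjusted p = 0.53) and Slc30a4, a zinc carrier of secretory vesicles (0.35 ± 0.16, adjusted p = 0.557). The first of each other class were Slc38a2 (0.16 ± 0.09), Slc12a7 (0.18 ± 0.10), Slc5a6 (0.24 ± 0.18), Slc35b1 (-0.05 ± 0.04) and Slc19a1 (-0.24 ± 0.15). None passed, and the adjusted p of these ran from 0.736 to 0.933.

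On adipocyte markers all 9 members at an unadjusted p below 0.05 had negative slopes. Over all probe sets at that p, markers included, 603 slopes were negative and 294 positive. The smallest p in each class were those of Slc6a13 (-2.77 ± 0.65, adjusted p = 0.318, limma), Slc44a4 (-1.65 ± 0.48), Slc2a8 (-3.59 ± 1.09), Slc35c2 (-1.75 ± 0.64), Slc30a3 (-1.25 ± 0.51), Slc25a53 (-2.01 ± 0.96) and Slc4a3 (-0.92 ± 0.55). Over the alternatives the Slc6a13 slope ran from -3.28 to -1.59, with adjusted p from 0.0700 (arrays centred on their medians) to 0.824 (without CT30). The adipocyte mean itself only ran from -0.20 to 0.20, so the slopes are extrapolated beyond the range seen. That mean moved against the median intensity of the arrays (r = -0.67, rho = -0.59, over 12 pools). Without CT18 and CT30 that r was -0.45, so it rests in part on those pools.

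Slc44a4 and Slc6a13 were also set against the median intensity of the arrays. Slc44a4, known as a carrier of epithelia, read 329.6, 289, 283, 367, 282 and 308 from CT18 to CT38 and 261, 312, 302, 259, 211 and 209 from CT42 to CT62. It was highest at CT30 and lowest at CT62 and CT58, and followed the array medians with r = 0.88 and rho = 0.94. For Slc6a13, r was 0.77 and rho 0.73. Without CT18 and CT30 r was 0.81 for Slc44a4 and 0.67 for Slc6a13. Both relations were chosen after the values were seen and are a description. With arrays centred on their medians, the difference between days of Slc6a13 was -0.49 (adjusted p = 0.572).

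Across the members, high values gathered in the same 3 pools. CT30 was among the 3 highest pools of 33 of 74 members (44.6%), CT18 of 26 (35.1%) and CT46 of 26 (35.1%), where an even spread would give 25%. The same shares over all 4433 genes with a mean of 100 or more were 34.02%, 28.2% and 33.9%. These 3 pools also had the 3 highest array medians (87.6, 84.9 and 84.7). CT62 was among the 3 lowest pools of 31 members and CT58 of 28, and their arrays had medians of 73.1 and 70.4. For the lowest pools the share over all genes was not taken. The pattern was not uniform: CT58 was also the highest pool of 10 members, and CT46 was among the 3 lowest of 21. With arrays centred on their medians, 15 members in place of 12 had an unadjusted p below 0.05 for a rhythm, and the amplitude was 0.43 for Slc27a1, 0.39 for Slc12a2 and 1.16 for Slc27a2. None of these 3 passed under that centring.

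**Figure D5:**
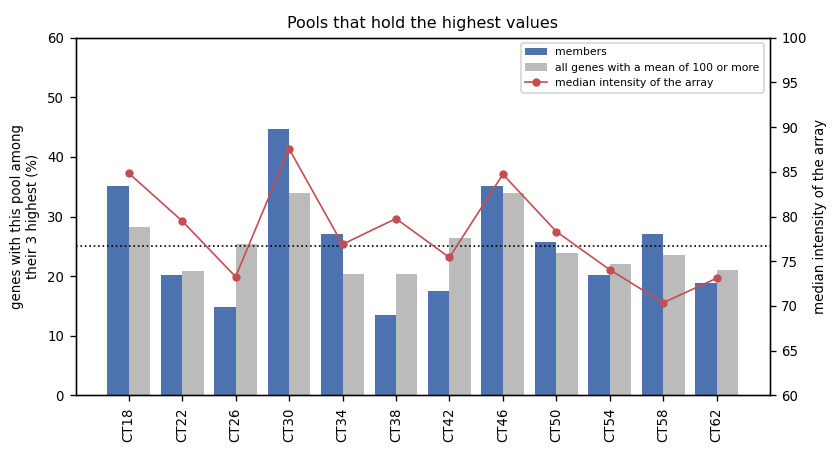
Bars give, for each pool, the percentage of genes that have it among their 3 highest pools, for the 74 members (blue) and all 4433 genes with a mean of 100 or more (grey), with the dotted line at 25% for an even spread. The red line gives the median intensity of the array (right axis, which starts at 60); CT30, CT18 and CT46 lead both the bars of the members and the line.

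The transporters and partners that work beside the solute carriers were likewise without a call. A list of cation pumps and Fxyd proteins had 9 genes kept. They include Atp7a, Atp4a, Fxyd1 and Fxyd5, which do not encode sodium or calcium pumps. Of the 9, 2 had an unadjusted p below 0.05, against 9.96% of all probe sets, and 0 passed. Atp2a2, the calcium pump SERCA2 of heart, slow and smooth muscle, had an amplitude of 0.79 ± 0.24 (adjusted p = 0.395) and Atp1b3, a sodium pump subunit, 0.12 ± 0.04 (adjusted p = 0.461). Atp2a2 was highest at CT38 (429) and CT42 (412), the pools with the highest atrial marker sums (17317 and 18682). At CT58 it read 408 with an atrial sum of 11405. Its relation to atrial markers was not tested. Of the partners and regulators, 2 of 9 had an unadjusted p below 0.05 and 0 passed. They were Car4, a carbonic anhydrase of the cell surface (0.26 ± 0.06, adjusted p = 0.229), and Sgk1, a kinase that regulates carriers (0.34 ± 0.11, adjusted p = 0.466).

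The ABC transporters use ATP directly. Of 18 kept, 2 had an unadjusted p below 0.05, against 9.96% of all probe sets, and 0 passed. Abcd3, which brings fatty acyl-CoA into peroxisomes, gave 0.29 ± 0.06 with its peak at CT9.3 (adjusted p = 0.1), at nearly the same fitted time as Slc27a1, and Abcd4 had 0.48 ± 0.13 (adjusted p = 0.321). The water channels gave 0 of 4, with the smallest p for Aqp7 (0.22 ± 0.09) and Aqp8 (0.31 ± 0.14). The same fit passed 3 of 7 clock genes in these pools, Nr1d2, Per2 and Dbp.

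For 22 members the array held more than 1 probe set, 25 others in all, of which 13 from 12 genes passed the intensity filter. None of the 13 passed for a rhythm (limma), and 97410_at of Slc25a51 had the smallest adjusted p (0.0941). The second probe sets of Slc23a3 and Slc29a1 had fitted peaks within 1 h of those used above, at CT23.4 and CT9.5, while those of Slc38a2 (CT23.0 against CT15.7) and Slc38a10 (CT20.0 against CT1.2) did not. Slc31a1 had 2 probe sets with r = -0.07 between them over 12 pools of the same arrays. The brightest probe set of 8 members carried a suffix that marks shared or irregular probes, among them Slc23a3, Slc25a1, Slc25a51, Slc19a1 and Slc39a4. For those with the suffix f, such as Slc25a51 and Slc19a1, related transcripts could add to the values.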

How the data were processed

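The deposited values are linear intensities, 1 for each probe set of an array, scaled by the authors in a way that the labels do not state, as is the software. Of 12488 probe sets, 66 controls were left out. Of the other 12422, the platform annotation gave 10833 a single gene, 396 several and 1193 none. All 74 members matched the RefSeq gene table of GRCm38.p6 by gene identifier, and 60 of them also matched its promoters. For the others no promoter was found there. Levels printed are deposited intensities, with the CT18 arrays averaged.

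For tests, intensities below 36.7 (the 20th percentile of positive values) were set to that floor, log2 was taken and CT18 arrays were averaged. Probe sets with a mean log2 of at least 5.60 (the 40th percentile) were kept, 7453 in all, and every member passed. R 4.3.3 and limma 3.58.1 (eBayes with an intensity trend) fitted a 24-h cosine, a day term (with the cosine as covariate), a difference in rhythm between days, and slopes on 3 marker lists, with Benjamini-Hochberg adjustment over all probe sets kept. Correlations over pools are given without p. The genes named are any member past the threshold (none was), the 12 members with the smallest rhythm p, per class the 2 smallest rhythm p and the smallest p of each marker slope, the 3 smallest p for the day and for the difference between days, the 3 genes on either side of the limit of 100, and of the other transport genes those called or the 2 with the smallest p per list. Others, such as Slc25a5, Slc2a5, Slc3a2, Slc6a6, Slc16a1 and Slc66a2, were named after their values were seen. The members and lists were chosen with earlier results of these data known.

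In simulated data for all 7453 probe sets the rhythm fit found 37% of the rhythms made with amplitude 0.5 and 78% of those made with 1 (4 false calls), and the muscle slope fit 54% and 86% of slopes of these sizes (10 false calls). Noise was drawn independently for each pool with the SD of the probe set over pools, so shifts shared by a pool were not simulated. No size below 0.5 was made, while the median amplitude of the members was 0.23. The number of arrays limits the precision.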

Additional observations from a re-analysis of the deposited data

How the results depend on the processing

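Each of the 6 counts of members was repeated with other floors, filters, normalizations, variance models, probe set rules and limits on the mean, without each time point and with either CT18 array alone. The rhythm was also fitted with marker covariates, and the slopes with 3 marker lists in 1 fit. Leaving out the CT18 pool as a whole, and pairing the days, were chosen after the data were seen. For the 24-h rhythm 0 members passed in 21 of 24 alternatives. Leaving out 1 time point gave 0 to 1, with 1 each without CT22 (Slc27a2, amplitude 1.37), CT26 (Slc12a2, 0.40) and CT30 (Slc27a1, 0.43). The lowest adjusted p of any member ran from 0.0367 to 0.189. For the muscle slope quantile normalization gave 1 (Slc25a4, slope 0.24, adjusted p = 0.0346) in place of 0, and the cause was not tested. The other 23 alternatives gave 0. The adipocyte and thymocyte slopes, the day and the difference between days gave 0 members in all their alternatives.

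The count over all probe sets moved far more, from 26 to between 4 (no filter, or no variance trend) and 40 (without CT30). It was 7 after centring arrays on their medians. Without single pools it was 10 (CT18), 10 (CT34), 9 (CT42), 17 (CT46), 8 (CT54), 14 (CT58) and 13 (CT62), and within 1.5 times 26 without CT22, CT26, CT38 or CT50. Members at an unadjusted p below 0.05 numbered 8 with a mean of 200 or more required, which is a smaller set of genes. In the other alternatives they numbered 10 to 15. The matching share of all probe sets is not given for each alternative. Over the alternatives the amplitude ran from 0.35 to 0.44 for Slc27a1, 0.33 to 0.44 for Slc35b2, 0.31 to 0.40 for Slc12a2, 0.98 to 1.37 for Slc27a2, 0.63 to 0.84 for Slc5a6 and 0.22 to 0.34 for Slc25a1. The Slc25a4 slope ran from 0.17 to 0.25 and that of Slc25a5 from -0.21 to -0.01. With pools paired by circadian time as a replicate block, 0 members passed for the day and the lowest adjusted p was 0.579 (Slc6a13, -0.53).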
